A study of Mus musculus with 6 samples.

Results

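MCT cells are a mouse proximal tubular epithelial line taken from the kidney cortex of SJL mice, and the data described here are the baseline transcriptome of MCT cells that had received vehicle. The series holds 6 arrays, of which 3 are vehicle controls (control 1, 2 and 3) and 3 come from MCT cells given the cytokine TWEAK at 100 ng/mL for 6 h. The 3 control arrays were chosen by their labels alone. Both groups hold the same line, for which the labels name no allele or transgene, grown with serum and rested overnight in serum-free medium before the treatment, and the series text describes independent experiments. The line is a single cultured source, so the arrays sample repeats of one culture model rather than animals. No effect of TWEAK is given, and the TWEAK arrays enter only as a second set of arrays that carry the same numbers. The labels do not say whether equal numbers mark a shared experiment.

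The proximal tubule is the nephron segment that reclaims most filtered solutes, through apical transporters and through the endocytic receptors megalin and cubilin. Its differentiated state depends on transcription factors such as the nuclear receptor Hnf4a, and proximal tubular cells in culture commonly lose transporters and gain vimentin, a filament protein of mesenchymal cells. Injured tubular cells also secrete chemokines and acute phase proteins, many of them under NF-kB, a family of dimeric transcription factors held in the cytoplasm by IkB proteins.

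The authors deposited log2 signals made by RMA, a method that corrects background, makes the array distributions alike and summarises probes. Values below are these log2 signals, in the order control 1, 2 and 3 unless stated, and a difference of 1 is a 2-fold difference. Each of 22088 named genes was represented by its brightest probe set. The rank of a gene is given as its percentile, the share of all genes with a lower mean control signal. Probes differ in how well they bind, so ranks order array signals and are not transcript abundances. Olfactory receptor genes, which act as odour sensors of the nose, served as the background. A gene was called above background when its signal passed the 95th percentile of the 1106 olfactory receptor genes on each control array, which lay at 5.56, 5.47 and 5.39. Where either moves a list's count by over 1.5 times, the counts at a stricter level (the 99th percentile of the same genes) and at a looser level (the 95th percentile of vomeronasal receptors) are given beside it.

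By this rule 13654 genes, 61.8% of all, were above background on all 3 control arrays, 891 on only 1 or 2 arrays, and 7543 on none. Each count of list members below is to be read beside the 61.8%. Of the olfactory receptor genes themselves 45 (4.07%) passed on every array. The median gene had a signal of 6.34, 6.31 and 6.31. Across genes, which are not independent replicates, the arrays correlated at 0.9961 between control 1 and 2, 0.9948 between control 2 and 3, and 0.9921 between control 1 and 3. The median SD of a gene over the 3 arrays was 0.11, and 19968 genes (90.4%) had a range under 0.50. Control 3 stood apart for a limited set of genes, described after the cell identity genes, and each level that it changes is given array by array.

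The highest signals belonged to structural RNAs, histones and metabolic or cytoskeletal housekeeping genes. Rn28s1, the large ribosomal RNA, had the highest mean at 13.83, and the 7SK and 18S RNAs were also among the 20 brightest genes. The labels name polyA RNA as the molecule and total RNA as the extract. Replication-dependent histone genes such as H3c13 (13.69 ± 0.05) filled many of the top places, and these are near-identical copies whose probes cannot be told apart with certainty. Gapdh, the glycolytic enzyme, averaged 13.58 ± 0.02, and Actb, cytoplasmic actin, 13.50 ± 0.02 (SD, n = 3 arrays for each).

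**Figure D1:**
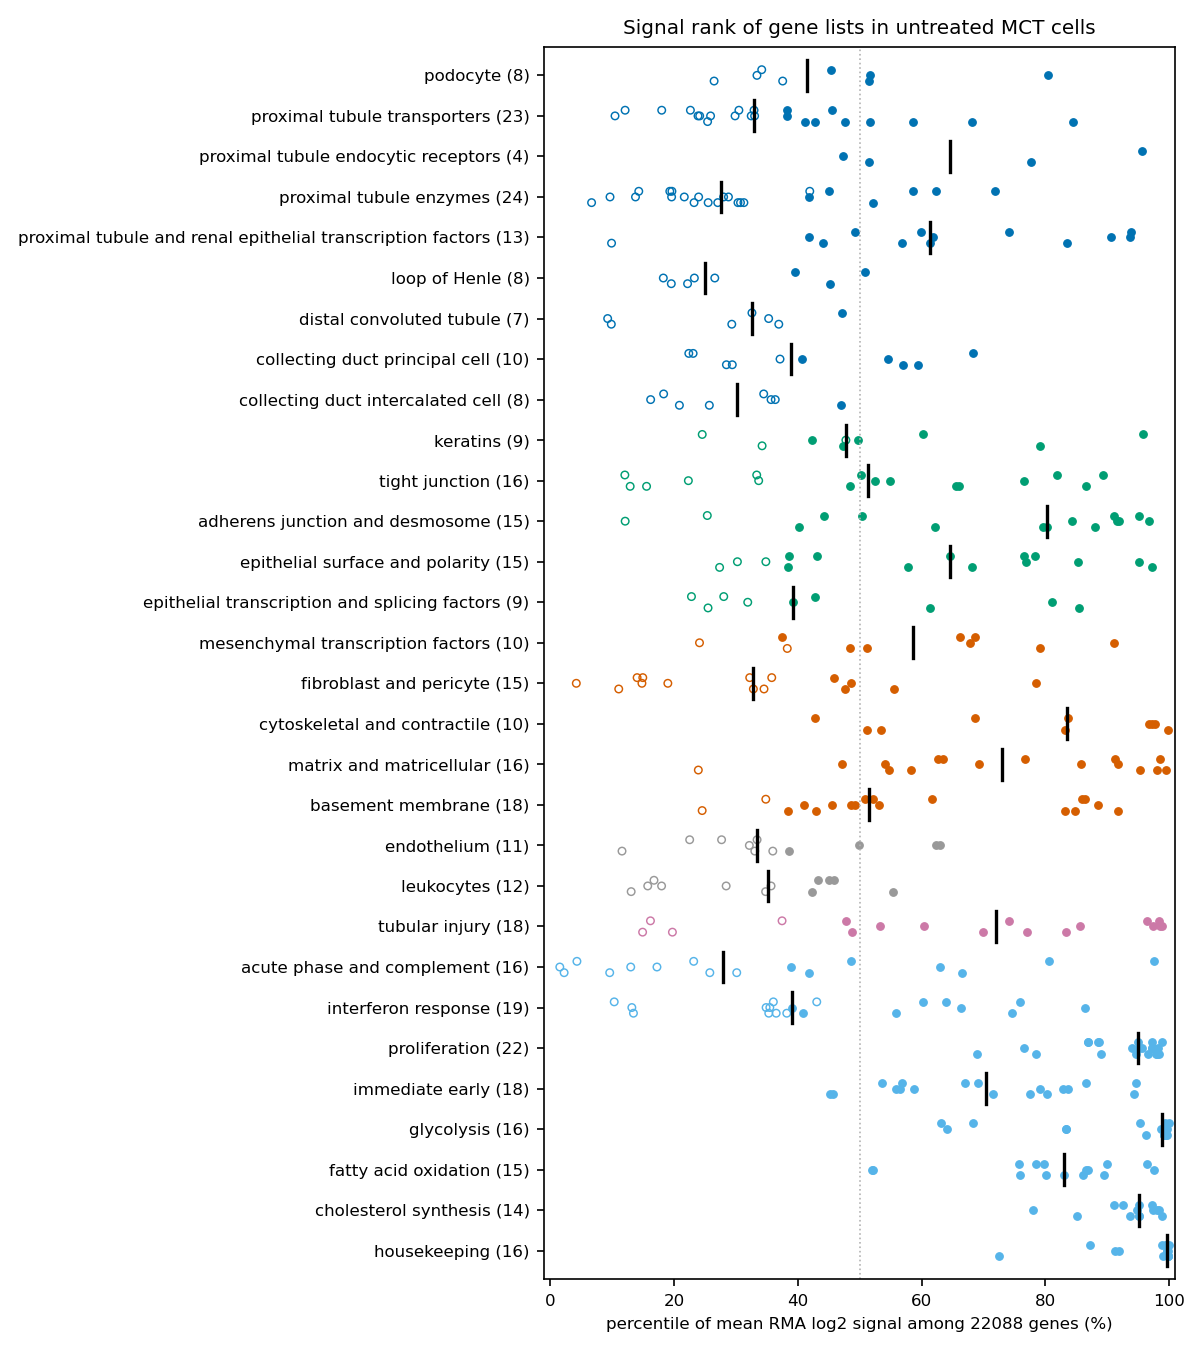
Percentile of the mean RMA log2 signal of 3 control arrays among 22088 genes (horizontal axis, percent) for members of 30 gene lists, with the number measured in parentheses. Filled points were above the olfactory receptor level on all 3 arrays, open points were not, vertical bars are list medians and the dotted line is the median gene. Housekeeping, glycolysis, cholesterol synthesis and proliferation genes sit at the right, and proximal tubule enzymes, loop of Henle and acute phase genes mostly at the left.

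Paired-box transcription factors that specify renal epithelium were high. Pax8, a paired-box factor of the nephric lineage, had signals of 10.63, 10.63 and 10.76 (percentile 94.0), and Pax2, a related paired-box factor, 10.10, 10.17 and 10.21 (percentile 90.7). Their ranges over the arrays were 0.13 and 0.12. Hnf4a, a nuclear receptor that drives proximal tubule maturation, lay near the median gene at 6.42, 6.26 and 6.14 (percentile 49.3), and its paralog Hnf4g was below background at 3.87, 3.98 and 3.82. Of the 13 listed renal factors 12 were above background, with a median percentile of 61.3.

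The 4 components of the endocytic apparatus were all above background, over a wide span of signals. Dab2, an adaptor that links megalin to clathrin, had 10.66, 11.21 and 11.20 (percentile 95.6). Lrp2, which encodes megalin, had 8.51, 8.77 and 9.05 (percentile 77.7). Amn, the amnionless membrane anchor of cubilin, had 6.68, 6.34 and 6.30, and Cubn, cubilin itself, 6.15, 6.10 and 6.14, both close to the median gene.

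Transporters and enzymes of the mature proximal tubule were mostly dim. Of 23 transporters 10 were above background (3 at the stricter and 18 at the looser level), against 61.8% of all genes, and their median percentile was 32.9. In a bulk sample, fewer cells with a transcript and less of it per cell cannot be told apart. Slc16a1, a monocarboxylate carrier found in many cell types, was the brightest at 9.47, 9.38 and 9.39. Slc5a2, the glucose transporter SGLT2 of the early proximal tubule, followed at 8.11, 7.83 and 7.87 (percentile 68.1), and Aqp1, a water channel, at 6.89, 6.90 and 7.38. Slc13a1, a sulfate transporter, was the dimmest at 4.06, 3.88 and 3.85. Of 24 enzymes 6 were above background (4 and 14 at the stricter and looser levels), with a median percentile of 27.5. Cyp4b1, a cytochrome P450, led them at 8.27, 7.78 and 8.72, followed by Ass1, the argininosuccinate synthase of arginine production, at 7.52, 7.41 and 7.31. Hao2, a hydroxy acid oxidase of peroxisomes, had 3.95, 3.96 and 3.71, below background on every array.

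With all 3 arrays at the main level, no other nephron segment list had most members above background. The same held for the proximal tubule transporters and enzymes. The counts were 3 of 8 for the loop of Henle, 1 of 7 for the distal convoluted tubule, 5 of 10 for principal cells, 1 of 8 for intercalated cells and 4 of 8 for podocytes. At the stricter level these counts were 0, 0, 3, 0 and 2, and at the looser level 4, 5, 8, 5 and 8. Without control 3 the count of the distal convoluted tubule was 2, and without control 1 or control 2 that of intercalated cells was 2. The count of principal cells was 6 without control 1 or with probe sets averaged, and that of podocytes was 5 without control 2. In the same order the median percentiles of these lists were 24.9, 32.6, 38.9, 30.1 and 41.5. Those of proximal tubule transporters and enzymes were 32.9 and 27.5. Umod, the uromodulin gene of the thick ascending limb, had 4.95, 5.05 and 4.81, Slc12a3, the thiazide-sensitive cotransporter of the distal tubule, 5.69, 5.59 and 5.29, and Scnn1b, a sodium channel subunit of principal cells, 4.80, 4.66 and 4.60. None of these genes was above background on all 3 arrays. Other members of the same lists were, such as Egf (6.07, 6.04 and 5.88) and Ppp1r1a (6.45, 6.43 and 6.28) for the loop of Henle. Trpm6 of the distal tubule list (6.07, 6.01 and 6.27) and Scnn1a of the principal cell list (6.51, 6.32 and 7.30) also were. Aqp2, the water channel of the collecting duct, was above it at 7.13, 6.78 and 6.82 (percentile 57.0), and so was Hsd11b2, the enzyme that inactivates glucocorticoids there, at 7.23, 7.18 and 7.03. Podxl, a sialomucin of podocytes and some other cells, reached 9.15, 8.79 and 9.17. Kl, the tubular co-receptor klotho, was below background at 4.94, 4.86 and 4.80 (percentile 25.4).

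Epithelial genes were split between bright genes, among them Krt18, Krt19, catenins and some cadherins, and dim ones, among them E-cadherin, Epcam and several keratins. Krt18, a simple-epithelium keratin, had 11.17, 10.91 and 11.16 (percentile 95.9) and its filament partner Krt8 7.33, 7.28 and 7.04 (percentile 60.3). Krt19, a further simple-epithelium keratin, had 9.06, 9.03 and 8.65. Krt20, better known from intestinal epithelium, had 6.52, 5.28 and 6.70, so that control 2 alone was below background. Krt7, Krt14 and Krt17 lay between percentiles 42.3 and 49.7, and Krt5 and Krt23 were not above background on all 3 arrays. In all, 6 of 9 keratins (66.7%) were above background, 3 at the stricter and 8 at the looser level. This is close to the 61.8% of all genes at the main level, and the median percentile of the keratins was 47.8.

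Among cadherins, Cdh16, the kidney-specific cadherin, had 10.26, 10.16 and 10.44 (percentile 91.6) and Cdh2, N-cadherin, which proximal tubules of rodents carry, 10.06, 10.26 and 10.39 (percentile 91.2). Cdh1, E-cadherin, was only just above background at 5.76, 5.64 and 5.69 (percentile 40.2). The catenins Ctnnb1 (10.79, 10.93 and 11.02) and Jup (11.24, 11.41 and 11.40), which tie cadherins to the cytoskeleton, were in the top 10% of genes. Adherens and desmosomal genes had 13 of 15 members above background and a median percentile of 80.2. Epcam, an adhesion molecule of most epithelia, was below background at 5.02, 4.87 and 5.05.

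Tight junction genes had 10 of 16 members (62.5%) above background, close to the 61.8% of all genes. Cldn12, a claudin found in many tissues, had 9.98, 9.83 and 10.13 and F11r, the junctional adhesion molecule A, 9.64, 9.68 and 9.66. Ocln, occludin, was below background at 4.26, 4.08 and 3.92, and Cldn8, a claudin of the distal nephron, at 3.99, 4.06 and 4.01. Of the epithelial surface and polarity genes 12 of 15 were above it, led by Cd24a, a surface sialoprotein, at 11.02, 11.57 and 11.92, and Ezr, the ezrin linker of microvilli, at 10.93, 10.81 and 11.07. Epithelial transcription and splicing factors had 5 of 9 members above background, 3 at the stricter and 7 at the looser level. Klf5, a zinc-finger factor of epithelia, had 9.57, 9.65 and 9.39, and Esrp1, the epithelial splicing regulator, was below background at 4.84, 4.71 and 4.61 while its paralog Esrp2 had 7.36, 7.43 and 7.14.

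Many cytoskeletal and matrix genes, vimentin among them, were high on the same arrays, but not all. Vim, vimentin, had 13.15, 13.20 and 13.23 (percentile 99.8), with a range of 0.08 over the arrays. Sparc, a secreted collagen-binding protein, had 12.82, 12.86 and 12.85 and Fn1, fibronectin, 11.98, 12.05 and 12.12. The dimmest of the cytoskeletal and contractile list were Cnn1 at 6.50, 6.06 and 6.70 (percentile 51.1) and Myl9 at 5.80, 5.80 and 5.93 (percentile 42.8). Those of the matrix list were Tgfbi at 6.26, 6.07 and 6.04 (percentile 47.2) and Lox, below background, at 4.84, 4.89 and 4.62 (percentile 23.9). The 10 cytoskeletal and contractile genes were all above background with a median percentile of 83.5, and 15 of 16 matrix genes were, with a median percentile of 73.0. Basement membrane genes had 16 of 18 members above it (8 at the stricter and 17 at the looser level) and a median percentile of 51.5, close to the median gene, and were led by the proteoglycan perlecan, Hspg2, at 10.35, 10.27 and 10.33 and the laminin chain Lama5 at 9.97, 9.79 and 9.89.

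Mesenchymal transcription factors had 8 of 10 members above background, 5 at the stricter and 9 at the looser level. Twist2, a basic helix-loop-helix factor, was the brightest at 10.37, 10.83 and 9.47, with control 3 below the other arrays. Foxd1, a forkhead factor of the renal stroma, had 8.79, 8.97 and 8.98 and Snai1, a repressor of E-cadherin, 8.14, 8.07 and 7.73. Prrx1, a homeobox factor of limb and stromal mesenchyme, was below background at 4.90, 4.94 and 4.55. Of the fibroblast and pericyte markers 5 of 15 were above background (2 at the stricter and 9 at the looser level), with a median percentile of 32.8. S100a4, a calcium-binding protein that is not limited to fibroblasts, led them at 8.82, 8.84 and 8.90, whereas Lum, the matrix proteoglycan lumican, had 3.55, 3.56 and 3.35 and Dcn, the related decorin, 4.18, 4.12 and 4.19.

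**Figure D2:**
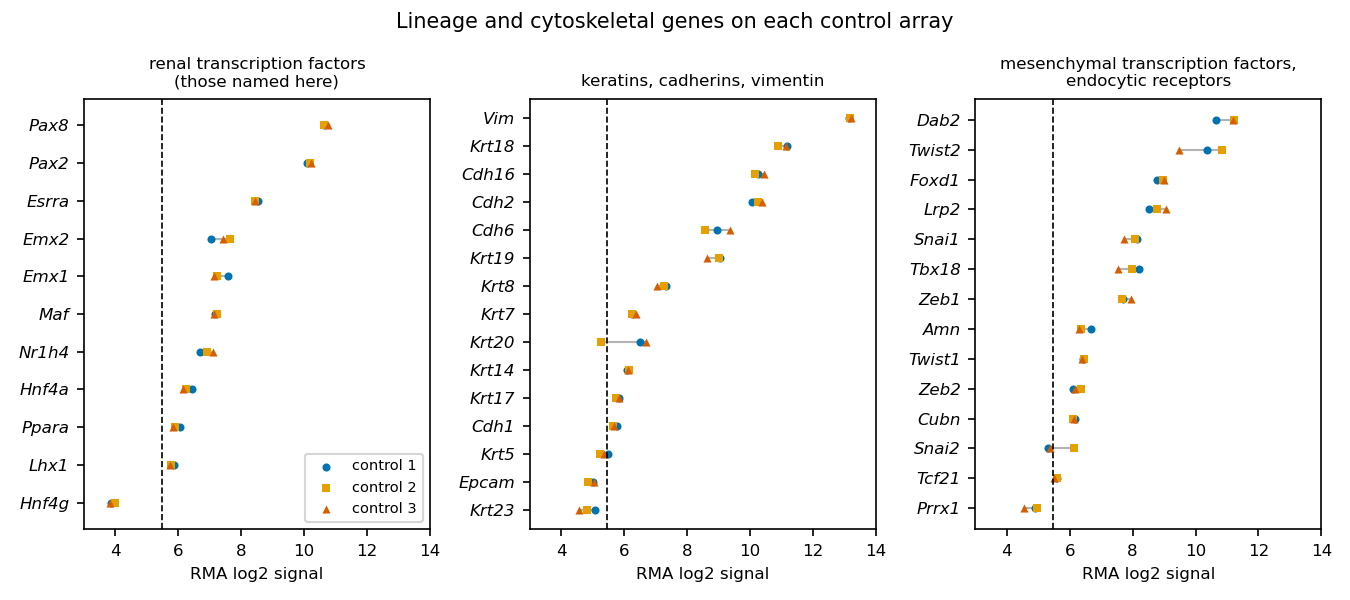
RMA log2 signal (horizontal axis) of listed renal transcription factors, of keratins, cadherins, Epcam and vimentin, and of mesenchymal factors with endocytic receptors on control 1 (circles), control 2 (squares) and control 3 (triangles). The dashed line is the mean olfactory receptor level of the 3 arrays. Pax8 and Pax2 lie above 10 on every array, Cdh1 beside the line, and Twist2 and Krt20 spread most.

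Markers of leukocytes and endothelium, which a tubular culture should not hold, ranked low, but no lower by median than proximal tubule transporters and enzymes. The median percentile was 35.2 for leukocyte and 33.4 for endothelial genes, against 32.9 for transporters and 27.5 for enzymes. Of all genes 61.8% were above background. Of 12 leukocyte genes 5 were above background (1 at the stricter and 8 at the looser level), led by Cd68, a lysosomal protein of macrophages and other cells, at 6.73, 6.78 and 6.80. Ptprc, the pan-leukocyte antigen CD45, had 4.51, 4.42 and 4.30 and Adgre1, the macrophage marker F4/80, 4.14, 4.10 and 4.05, both below background on every array. Of 11 endothelial genes 4 were above it (2 at the stricter and 9 at the looser level), the brightest Egfl7, an endothelial secreted protein, at 7.56, 7.48 and 7.37, whereas Emcn, endomucin, had 4.06, 4.06 and 3.86. Pax8 of the nephric lineage, the kidney-specific cadherin Cdh16 and the proximal tubule endocytic receptor Lrp2 were above background. Most transporters and enzymes of the mature proximal tubule were not.

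Of 18 tubular injury genes 14 (77.8%) were above background, against 61.8% of all genes, with a median percentile of 72.02. Anxa2, a membrane-binding annexin, had 12.33, 12.27 and 12.34 and Igfbp7, a secreted binding protein used as a urinary injury marker, 12.20, 12.24 and 11.80. Havcr1, which encodes the injury marker KIM-1, was below background at 4.82, 4.25 and 4.48 (percentile 19.7). Lcn2, the iron-siderophore carrier NGAL that injured tubules secrete, was high on control 1 and 2 and close to background on control 3, and is described with the variable genes.

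Cell division and basic metabolism genes were high. All 22 proliferation genes were above background, with a median percentile of 95.02. Pcna, the replication clamp, had 12.05, 12.24 and 12.45 and Aurkb, a mitotic kinase, 11.90, 11.92 and 11.88. The dimmest member was the spindle checkpoint kinase Bub1 at 7.63, 7.85 and 8.53, which was highest on control 3. The 16 glycolysis genes had a median percentile of 98.96 and the 14 cholesterol synthesis genes 95.2, all above background. Fatty acid oxidation, the main energy source of the proximal tubule in vivo, had 15 of 15 genes above background and a median percentile of 83.1. Its coactivator Ppargc1a, PGC-1alpha, was near the median gene at 6.13, 6.50 and 6.84 (percentile 52.1), and Ehhadh, the peroxisomal bifunctional enzyme, at 6.53, 6.40 and 6.48. All 18 immediate early genes were above background, and Myc, the growth regulator, was the brightest at 10.98, 10.91 and 10.59.

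Transcripts for the receptors of several inflammatory cytokines were above background. In the TNF receptor superfamily 20 of 28 members (71.4%) were above background, against 61.8% of all genes. The median percentile of the family was 52.7, near the median gene. Tnfrsf12a, which encodes the TWEAK receptor Fn14, had the highest signal of the family at 10.78, 10.42 and 10.42 (percentile 93.2). Tnfrsf1a, the broadly expressed TNF receptor, followed at 10.41, 10.32 and 10.17, and Tnfrsf10b, the mouse TRAIL receptor, at 9.97, 9.71 and 9.86. The ranges of these receptors were 0.35, 0.24 and 0.26. Cd27, a lymphocyte receptor, had 4.76, 4.89 and 4.81 and Tnfrsf26 4.42, 4.26 and 4.53, both below background.

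Of 24 interleukin, interferon and gp130 receptors 18 were above background. The interferon gamma receptor chain Ifngr2 had 12.27, 11.98 and 11.86, the interleukin 17 receptor chain Il17rc 11.25, 11.09 and 10.97 and the shared gp130 chain Il6st 10.54, 10.88 and 10.83. The lymphoid common gamma chain, Il2rg, was below background at 4.33, 4.21 and 4.19. Pattern recognition genes had 10 of 16 members (62.5%) above background, near the 61.8% of all genes, and 6 at the stricter and 12 at the looser level. The adaptor Myd88 had 9.85, 9.71 and 9.48 and the lipoprotein receptor Tlr2 8.44, 8.35 and 7.99, and Tlr7 and Tlr8 were below background. Growth factor receptors had 19 of 22 members above background, led by Axl, the Gas6 receptor, at 11.70, 11.58 and 11.63 and Tgfbr2, a TGF-beta receptor chain, at 10.23, 10.23 and 10.26. Of 26 hormone and vasoactive receptors 17 (65.4%) were above it, near the 61.8% of all genes. The ATP-gated channel P2rx4 had 10.11, 9.83 and 9.87 and the vitamin D receptor Vdr 8.24, 8.89 and 8.42. The mineralocorticoid receptor Nr3c2 had 4.04, 4.10 and 4.30.

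The 5 NF-kB subunits, the 6 IkB proteins and the 10 listed kinases of the pathway were all above background. Rela, the p65 subunit of the canonical dimer, had 11.44, 11.43 and 11.25 (percentile 96.9). Nfkb2, the p100 precursor of the noncanonical pathway, had 10.74, 10.65 and 10.43 (percentile 93.6), and Nfkb1, the p105 precursor, 10.15, 9.95 and 9.76 (percentile 89.1). Relb, the noncanonical partner of p52, had 8.61, 8.36 and 8.04 (percentile 72.7) and Rel, c-Rel, 7.71, 8.11 and 7.95 (percentile 68.0). All but Rel, which was lowest on control 1, were lowest on control 3, with ranges of 0.19 for Rela, 0.31 for Nfkb2, 0.39 for Nfkb1 and 0.57 for Relb.

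Among the inhibitors, Nfkbib, IkB-beta, had 11.14, 11.15 and 10.98 and Nfkbia, IkB-alpha, 10.68, 10.50 and 9.64. Bcl3, a nuclear IkB cofactor, had 9.30, 9.69 and 8.30 and Nfkbiz, IkB-zeta, 8.35, 8.67 and 7.56. Nfkbia, Bcl3 and Nfkbiz were each lowest on control 3 and had ranges of 1.04, 1.39 and 1.11. Nfkbie, IkB-epsilon, had 8.71, 8.16 and 8.26 and Nfkbid, a further nuclear member, 6.90, 6.53 and 6.35, both highest on control 1 and with ranges of 0.55 and 0.55.

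Upstream, the kinase Map3k3 had 9.33, 9.28 and 9.37 and Map3k7, TAK1, 8.81, 9.04 and 9.12, while Ikbkb, the canonical IkB kinase, had 8.68, 8.79 and 8.64 and Chuk, IKK-alpha, 7.65, 8.08 and 8.25. Of 13 TRAF, cIAP and adaptor genes 12 were above background, led by Traf4 at 10.37, 10.35 and 10.09 and Traf2, an adaptor of TNF receptors, at 9.89, 9.77 and 9.41. Of 9 brakes on the pathway 8 were above it, led by the linear ubiquitin ligase components Rbck1 (10.91, 10.75 and 10.63) and Sharpin (10.57, 10.35 and 10.50), and Tnip3, a partner of the A20 deubiquitinase, was below at 4.36, 4.30 and 4.34.

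**Figure D3:**
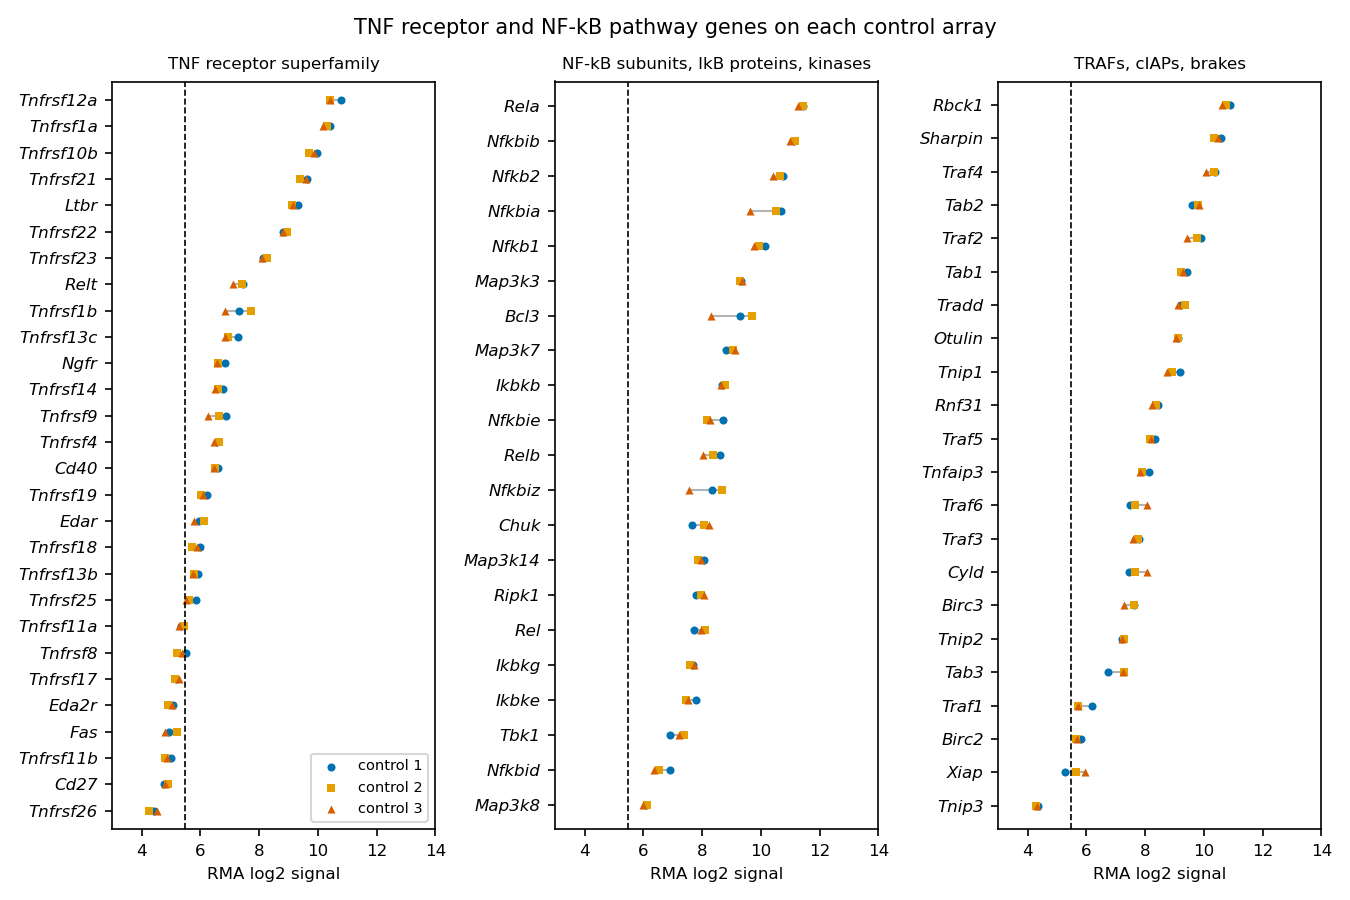
RMA log2 signal (horizontal axis) of TNF receptors, of NF-kB subunits, IkB proteins and kinases, and of TRAFs, cIAPs and brakes on control 1 (circles), control 2 (squares) and control 3 (triangles). The dashed line is the mean olfactory receptor level. Tnfrsf12a heads the receptors, and the widest gaps are those of Nfkbia, Bcl3 and Nfkbiz, where control 3 is lowest.

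NF-kB target genes had 11 of 16 members (68.75%) above background, 7 at the stricter and 13 at the looser level, against 61.8% of all genes at the main level. Cxcl10, a T cell chemokine, had 10.99, 11.34 and 10.75, Sod2, the mitochondrial superoxide dismutase, 10.60, 10.60 and 10.49, and Csf1, the macrophage growth factor, 10.23, 10.10 and 10.09. Il6, the cytokine interleukin 6, was among the dimmest genes of the array at 3.13, 3.04 and 3.13 (percentile 0.77). Of 19 interferon response genes 9 were above background (7 at the stricter and 16 at the looser level), led by the transcription factor Irf1 at 9.73, 9.66 and 9.50. Mx2, of an antiviral GTPase family but a transcribed pseudogene in the reference annotation, had 4.03, 3.97 and 3.76. Of 16 acute phase and complement genes 7 were above it, 3 at the stricter and 8 at the looser level. Lbp, the lipopolysaccharide-binding protein, was the brightest at 11.91, 12.16 and 10.82, and Cd55, a complement decay factor, the dimmest at 3.33, 3.17 and 3.13.

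The control arrays differed from each other in few genes. A range of at least 1 between the highest and the lowest array was found for 243 genes, 1.1% of all, and a range of at least 2 for 16. The array farthest from the others was control 3 for most of them, above them for 124 genes (0.561% of all) and below them for 31 (0.14%). Control 1 was below the others for 55 (0.249%) and above for 3 (0.0136%), and control 2 was above for 18 (0.0815%) and below for 12 (0.0543%). Without control 3 the range reached 1 for 24 genes, without control 1 for 102 and without control 2 for 188. Spread was smallest in the dimmest 20% of genes by mean signal (median SD 0.09) and largest among those ranked at 60% to 80% (0.14).

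**Figure D4:**
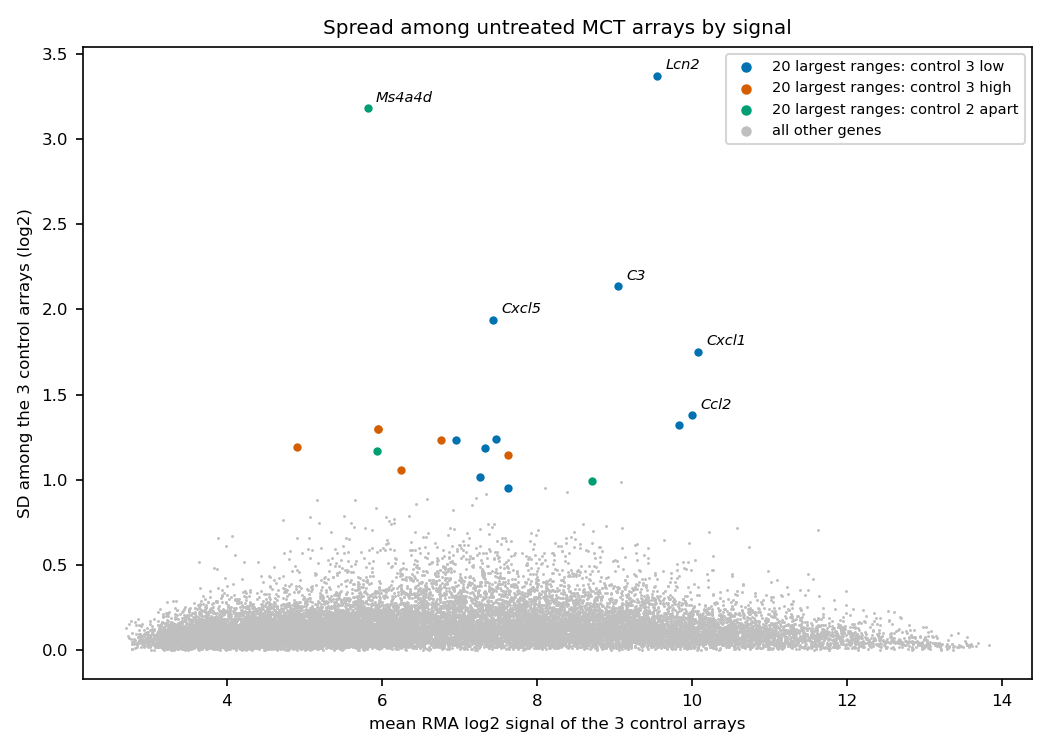
SD over the 3 control arrays (vertical axis, log2) against the mean RMA log2 signal (horizontal axis) for 22088 genes, with the 20 genes of largest range coloured by the array that stood apart. Lcn2 and Ms4a4d have SDs above 3, and most genes lie below 0.33, the 95th percentile of the SD.

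Lcn2 had the largest range of all genes above background on at least 1 control array. Its signals were 11.58, 11.41 and 5.66, and control 3 minus the mean of the other control arrays was -5.84 on the log2 scale. C3, the central complement component, had 9.98, 10.55 and 6.60, a difference of -3.67. Cxcl5, a neutrophil chemokine, had 8.33, 8.77 and 5.21, and Cxcl1, a related neutrophil chemokine, 11.25, 10.92 and 8.07, with differences of -3.34 and -3.02. On control 1 and 2 all 4 genes were well above background, and on control 3 Cxcl5 was below it, so that the size of its difference is limited by the background.

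Control 3 was also the lowest array for some further chemokines and acute phase genes. Ccl2, the monocyte chemokine MCP-1, had 10.70, 10.89 and 8.41, and Ccl20, the ligand of the receptor CCR6, 7.63, 7.70 and 5.53. Saa3, a serum amyloid A protein, had 8.20, 8.18 and 6.04. Cebpd, a C/EBP transcription factor of the acute phase, had 7.55, 8.38 and 6.05, and Neurl3, a ubiquitin ligase, 10.81, 10.37 and 8.33. Among the 16 acute phase and complement genes, 3 had a range of at least 1 (C3, Saa3 and Lbp), each lowest on control 3. In that list 9 genes were above background on no array, and Masp1 was highest on control 3 at 7.67, 7.69 and 8.04. Of the 16 NF-kB target genes 8 had a range of at least 1, against 1.1% of all genes, and the median SD of the 16 was 0.42. Control 3 was the low array for 7 of these, namely Ccl2, Ccl5, Ccl7, Ccl20, Cxcl1, Cxcl5 and Cx3cl1, while for Cxcl2 control 1 was the high one. These names were picked after the values were seen, and the list was chosen with results of these data known.

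Markers of other cells were read on the same arrays. The summed linear signal of the 12 leukocyte genes was 584, 545 and 529 on control 1, 2 and 3, and that of the 15 fibroblast and pericyte genes was 1083, 1030 and 1045. The 16 NF-kB target genes summed to 12041, 11895 and 6262. Of the 12 leukocyte genes 5 were above background on all 3 arrays, and Ptprc and Adgre1 were below it on each array. Those above it included Cd3e (6.06, 6.07 and 5.83), Coro1a (6.04, 6.01 and 6.07) and Tyrobp (6.18, 5.85 and 5.58). The 22 proliferation genes summed to 45457, 45127 and 48839, highest on control 3. The part of any of these in the low chemokine signals of control 3 was not tested.

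The regions just upstream of some genes of large range, picked from those with a window, are shown to describe their letters. Any link between these letters and the low signals of control 3 was not tested. Each line is the 250 bases before the RefSeq start of the gene, 5′ to 3′ on the coding strand, in build GRCm38.p6 of the reference strain and not read from MCT cells. Capitals mark matches to a kappaB-like motif (GGG, any 5 bases, then CC) or a C/EBP-like motif (TTGC, any 2 bases, then AA), on either strand, and overlapping matches share 1 run of capitals.
Lcn2: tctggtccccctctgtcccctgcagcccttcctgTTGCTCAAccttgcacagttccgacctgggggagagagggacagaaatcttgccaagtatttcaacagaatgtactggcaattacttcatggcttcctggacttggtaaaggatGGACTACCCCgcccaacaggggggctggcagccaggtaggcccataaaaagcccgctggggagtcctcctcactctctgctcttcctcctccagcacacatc
C3: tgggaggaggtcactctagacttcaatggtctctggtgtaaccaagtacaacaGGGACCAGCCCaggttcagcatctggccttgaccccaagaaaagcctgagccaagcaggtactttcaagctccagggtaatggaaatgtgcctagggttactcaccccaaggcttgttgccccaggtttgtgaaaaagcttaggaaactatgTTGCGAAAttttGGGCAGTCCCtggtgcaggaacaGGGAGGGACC
Cxcl1: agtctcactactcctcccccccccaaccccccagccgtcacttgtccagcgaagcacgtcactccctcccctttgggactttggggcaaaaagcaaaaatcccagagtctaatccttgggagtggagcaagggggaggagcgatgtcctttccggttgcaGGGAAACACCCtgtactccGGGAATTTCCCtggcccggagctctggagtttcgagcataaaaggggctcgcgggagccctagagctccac
Saa3: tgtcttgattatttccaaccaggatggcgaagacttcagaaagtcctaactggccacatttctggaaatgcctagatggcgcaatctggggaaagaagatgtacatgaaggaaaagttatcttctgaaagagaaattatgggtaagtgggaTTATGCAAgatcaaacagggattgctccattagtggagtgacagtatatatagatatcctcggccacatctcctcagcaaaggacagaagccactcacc
Ms4a4d: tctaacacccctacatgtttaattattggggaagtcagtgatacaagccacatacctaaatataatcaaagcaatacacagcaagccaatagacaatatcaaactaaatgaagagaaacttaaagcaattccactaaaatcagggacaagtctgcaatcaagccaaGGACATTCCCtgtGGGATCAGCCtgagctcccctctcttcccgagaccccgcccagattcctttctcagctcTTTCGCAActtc

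The Lcn2 window is chr2:32387740-32387989 on the minus strand, that of C3 chr17:57228137-57228386 on the minus strand, and that of Cxcl1 chr5:90890995-90891244 on the plus strand. The Saa3 window is chr7:46715677-46715926 on the minus strand, and that of Ms4a4d chr19:11536544-11536793 on the plus strand. Lcn2 held 1 kappaB-like match, C3 held 4, Cxcl1 held 4 and Saa3 none, counting overlapping matches singly, and Ms4a4d, which was not low on control 3, held 2. A C/EBP-like match was present before Lcn2, C3, Saa3 and Ms4a4d and not before Cxcl1. Of 32851 promoter windows of this length 45.8% held a kappaB-like match and 9.56% a C/EBP-like one, so that a kappaB-like match is common. Of 24 genes with a large range or a small p looked up, 15 had a window, 11 with a kappaB-like match and 5 with a C/EBP-like match. The windows shown were picked from these 15. Among those not shown, Atp2b4 and Ppbp, low on control 3, held neither match. Neurl3, Ccl20 and Rab32, also low on control 3, held kappaB-like matches but no C/EBP-like one. Depdc1a, which was high on control 3, held both. A match is a description of the letters and not a binding site.

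Ms4a4d, a member of the MS4A family of membrane proteins, had the next largest range after Lcn2 and followed another array. Its signals were 4.13, 9.48 and 3.84, a log2 difference of 5.50 between control 2 and the mean of the others, which were both below background, so that the size is limited by the background. Mgll, the monoglyceride lipase, was likewise high on control 2 at 5.41, 7.27 and 5.12. Other genes that stood out on control 2, named after their values were seen, included Osmr, the oncostatin M receptor, at 6.37, 7.63 and 6.57 and Ddr2, a collagen receptor, at 6.84, 7.88 and 6.65. Tns1, a focal adhesion tensin, was low on control 2 at 8.80, 7.67 and 9.65.

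The 124 genes high on control 3 had smaller gaps, with a median of 1.01 over the mean of the other control arrays. Malat1, a nuclear long noncoding RNA, had 5.70, 6.47 and 8.12, and Depdc1a, a mitotic gene, 5.56, 5.71 and 7.47. The probe sets listed as Gm3079 and Snord115 held identical values, 5.81, 4.72 and 7.31, and are not independent measurements. Of the 22 proliferation genes 0 had a range of at least 1, against 1.1% of all genes. A list of 22 is too short to show a share below this. Hmmr and Smc4, division genes outside that list, were high on control 3, with ranges of 1.49 and 1.42. They were named after their values were seen, and division genes as a group were not tested. Xist, the noncoding RNA that silences an X chromosome, was also highest on control 3 at 7.84, 8.23 and 9.07 (percentile 73.2). Control 1 was the low array for 55 genes, with a median gap of -0.88, and Bmpr1a, a BMP receptor chain, is an example at 6.91, 7.64 and 8.23.

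These patterns were then looked for on the TWEAK arrays that carry the same numbers, whose link to the control arrays the labels do not give. For Lcn2 TWEAK 1, 2 and 3 had 12.07, 12.04 and 7.04, with number 3 again lowest, at -5.02 from the mean of the others. For Ms4a4d they had 4.02, 8.97 and 4.28, with number 2 again highest. C3 had 10.86, 11.42 and 8.61 and Saa3 9.89, 10.46 and 6.29, also lowest on number 3. The gap of number 3 was -0.54 for Ccl2 among the TWEAK arrays, against -2.39 among the control arrays, -0.81 against -2.26 for Neurl3 and -1.31 against -3.02 for Cxcl1. For Malat1 they had 5.30, 5.43 and 5.65 and for Depdc1a 4.93, 5.21 and 5.20, with gaps of 0.29 and 0.13 for number 3, so that number 3 was again the highest for Malat1 but by much less than the 2.03 of the control arrays.

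**Figure D5:**
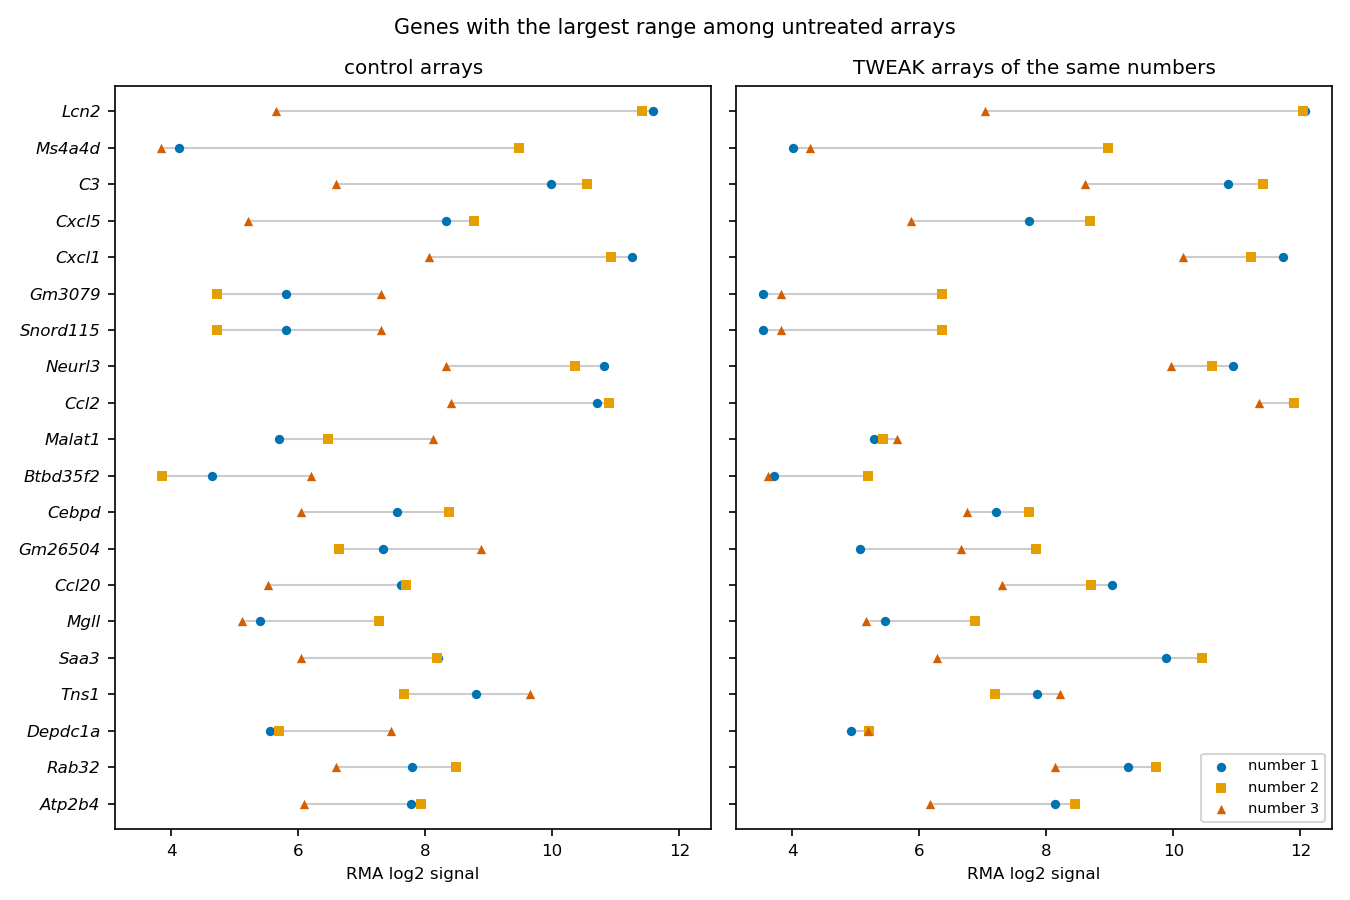
RMA log2 signal (horizontal axis) of the 20 genes with the largest range among the control arrays, on the 3 control arrays (left panel) and on the TWEAK arrays of the same numbers (right panel). Circles, squares and triangles are numbers 1, 2 and 3. The low triangles of Lcn2, C3, Cxcl5 and Cxcl1 and the high squares of Ms4a4d and Mgll appear in both panels, and the high triangles of Malat1 and Depdc1a lie close to the other symbols in the right panel.

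Of the 20 genes 14 had the same array apart in the same direction among the TWEAK arrays. This held for 10 of the 11 that were low in number 3, for all 3 that followed number 2 and for 1 of the 6 that were high in number 3, Malat1. Those 6 include Gm3079 and Snord115, which hold the same values. Over all 243 genes of large range it held for 67 (27.57%), against 4323 of all 22088 genes (19.57%). Genes low on control 3 recurred in 24 of 31 cases and genes high on control 2 in 12 of 18. Genes high on control 3 recurred in 15 of 124, with a median gap of -0.01 among the TWEAK arrays, and genes low on control 1 in 6 of 55, with a median gap of -0.07.

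Replicate number was then tested over all 6 arrays with limma's moderated F test, with treatment as a term and Benjamini-Hochberg adjustment over 22088 genes. Lcn2 and Ms4a4d passed at an adjusted p of 0.0109 each, which is 0.00905% of the genes tested. At an unadjusted p under 0.05 there were 1411 genes (6.39%). The next genes missed the threshold, with an adjusted p of 0.0854 for Atp2b4, a plasma membrane calcium pump, for Rab32, a small GTPase of organelles, for Ppbp, a platelet chemokine, and for Abi3bp, a matrix protein. C3 and Nos2, the inducible nitric oxide synthase, had an adjusted p of 0.129 each. In this limma test Lcn2 had an adjusted p of 0.568 without the arrays of number 3, and Ms4a4d of 1 without those of number 2. Over all alternatives run, the adjusted p of this limma test lay between 0.00117 and 0.568 for Lcn2 and between 1.17e-07 and 1 for Ms4a4d. The labels do not say whether equal numbers mark a shared experiment.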

How the data were processed

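RNA of MCT cells was measured on 6 Affymetrix arrays, 3 after vehicle and 3 after TWEAK, grouped and numbered by their titles. Per the labels' protocols, Trizol extracts were labelled with reagents of the WT PLUS kit. The authors deposited log2 values per probe set, and the submitters' processing notes name RMA and Affymetrix Expression Console, with no version. RMA makes array distributions alike, so that a shift shared by most genes would not be seen. The deposited workbook and series values differed by at most 1.78e-15. Arrays give no counts, and their number limits the precision.

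Of 28361 probe sets 25465 had 1 gene symbol, 2894 none and 2 several. Only probe sets with 1 symbol were used, and the brightest by mean control signal stood for a gene, of which 1820 had several. Names were updated through a RefSeq table of GRCm38.p6, 19404 by accession, 1388 by symbol and 536 by synonym, and 760 kept the file's name. Of 591 genes in 41 lists 589 were measured, and Tlr5 and Igtp were not analysed here. A probe set for Tnfsf12 alone was not used here. Some listed genes count in their lists but are not reported by name or drawn by name here.

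Members and lists were chosen with earlier results of these data known. Genes named were the 20 highest by mean, the 20 largest ranges among genes above background on at least 1 control array, the 10 smallest p, the 4 highest and 2 lowest of each list, all NF-kB subunits, IkB proteins, keratins and endocytic receptors, and a few fixed ones. Others, namely Ptprc, Slc12a3, Ccl5, Ccl7, Cx3cl1, Cxcl2, Osmr, Ddr2, Dcn, Bmpr1a, Esrp2, Hmmr and Smc4, were chosen after their values were seen or lie in a list described as a whole.

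Replicate number was tested with limma 3.58.1 in R 4.3.3 (moderated F test, treatment and number as terms, adjusted p under 0.05). Tested on simulated data with spreads drawn from limma's prior, this fit over 22088 genes recovered 60 of 100 genes shifted by 1 and 100 of 100 shifted by 2, with 3 false among 163 calls. With each gene's moderated spread it recovered 100 of 100 at both sizes, with 39 false among 239 calls. Promoter windows came from RefSeq. Alternatives were other background levels, other probe set choices, other scalings, limma's trend and robust settings, filters on dim genes and leaving out each array or number.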

Additional observations from a re-analysis of the deposited data

How the results depend on the processing

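The number of genes above background lay between 10415, at the 99th percentile of olfactory receptors, and 16477, at the 95th of vomeronasal receptors, against 13654. The other alternatives gave 13618 to 14116. Among list members the count was 322 and 506 under those levels, against 421, and 16 and 10 of the 41 lists moved by over 1.5 times. At the 99th percentile, proximal tubule transporters above background numbered 3 of 23 and podocyte genes 2 of 8. The 243 genes of large range became 234 to 288 under the other scalings, probe set choices and the filter, and 24 to 188 when a control array was left out, 24 without control 3 and 102 without control 1. Replicate number called 2 genes, against 6 with trend and robust settings, 1 among genes brighter than the median gene, 7 with arrays centred on their median, and 1 to 416 when the arrays of a number were left out, 416 without number 3, 12 without number 1 and 1 without number 2. The causes were not tested. Mean signals moved by more than their SD for 21 of 289 named genes when probe sets were averaged and for 0 when arrays were centred on their median. Leaving out 1 of 3 arrays cannot move a mean by its SD. It gave mean signals of 8.53 to 11.49 for Lcn2, against 9.55, and of 3.98 to 6.81 for Ms4a4d, against 5.82, with 11.49 without control 3 and 3.98 without control 2. No paired analysis was possible because no comparison between groups is made here and the replicate number is itself the term tested. Deviations of same-numbered arrays from their group means correlated across genes at 0.195, 0.359 and -0.0719 for numbers 1, 2 and 3. Control 1 correlated more with TWEAK 3 (0.288) than with TWEAK 1, and control 3 more with TWEAK 2 (0.2001) than with TWEAK 3, so that number 2 was the only one whose arrays matched best.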

Other observations

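Genes of the sex chromosomes were read after their values were seen. Xist, which is transcribed from the inactive X chromosome, was above background on all 3 control arrays (mean 8.38 ± 0.63, SD, n = 3). The Y-linked genes Ddx3y, a helicase, at 3.96 ± 0.10, Kdm5d, a histone demethylase, at 3.77 ± 0.04, Uty, also a demethylase, at 3.95 ± 0.14, and Eif2s3y, a translation factor, at 3.17 ± 0.11 were all below background on every array (SD, n = 3). The labels do not give the sex of the mice that yielded the line.

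Growth arrest genes, read after their values were seen, were above background beside the division genes. Trp53, the p53 tumour suppressor, averaged 12.07 ± 0.15, Cdkn1a, the cell cycle inhibitor p21, 10.69 ± 0.25, and Cdkn2a, the locus of p16 and ARF, 9.91 ± 0.16 (SD, n = 3). Among the genes of large range that were high on control 2, picked after their values were seen, were Abi3bp, a matrix protein, at 6.32, 7.58 and 5.86, and the glypican Gpc4 at 8.22, 9.35 and 8.63 on control 1, 2 and 3.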
